A study of Mus musculus with 12 samples.

Results

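The genes described here encode 9 transcription factors of the formative and primed epiblast, the pluripotent tissue that the naive inner cell mass becomes around implantation. They were taken by symbol from a table of 22462 genes counted by ribosome profiling, and all 9 were among the 11750 genes with enough reads to be tested. Mouse embryonic stem cells (ESCs) were kept in fetal bovine serum with LIF and 2i, the inhibitors PD0325901 and CHIR99021, which hold ESCs in the naive state. Epiblast-like cells (EpiLCs) were derived from ESCs by removing LIF and 2i and were collected about 56 h later. According to the study's methods, differentiation used a V6.5 ESC line with reporters for miR-290 and miR-302, so the cells came from a single line and genetic background. No knockout and no drug beyond the medium is named for either cell type. Whether cycloheximide was added for ribosome profiling is not stated. Ribosome protected fragments (RPF), the pieces of mRNA that ribosomes shield from nuclease, and total RNA were sequenced from both cell types, with 3 replicates each and 12 libraries in all. The question addressed was how far the mRNA and the ribosome occupancy of these factors moved from one pluripotent state to the next. The study calls the replicates biological, and the labels do not say whether they came from separate cultures. The p-values measure the spread between these libraries, which may in part be technical.

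When naive pluripotency is dismantled, the naive factors are switched off and a new group of factors takes their place, often beside POU5F1. OTX2 is a homeodomain factor that helps to start this exit and later patterns the forebrain. POU3F1, also called OCT6, belongs to the same POU family as POU5F1. ZIC2 and ZIC5 are zinc finger factors. SOX3 is an HMG box factor of the SOXB1 group, together with SOX1 and SOX2, and SOX4 and SOX11 form most of the SOXC group. FOXD3 is a forkhead factor needed to maintain the epiblast. GRHL2, a grainyhead-like factor, activates epithelial genes.

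The counted sequence was the coding sequence without its first 45 nt, on mm10. Otx2 lay at chr14:48658706-48662495 on the minus strand and was counted over 3 coding exons. The genes Zic5 (chr14:122459333-122465272, minus strand) and Zic2 (chr14:122475721-122479243, plus strand) are neighbours that point away from each other, with 10449 bp between their counted sequences. Grhl2 spread over 16 coding exons at chr15:37270615-37360851 on the plus strand. The other 5 genes were counted in a single interval. They were Pou3f1 at chr4:124657752-124659056 and Foxd3 at chr4:99656670-99658034 on the plus strand, and Sox3 at chrX:60892078-60893385, Sox4 at chr13:28951699-28952976 and Sox11 at chr12:27341221-27342363 on the minus strand. Counted sequence in a single interval was found in 5.49% of the tested genes. The GC content of the counted sequence was above 65% in 7 of the 9 genes, from 66.0% in Zic2 to 73.6% in Sox3, against 2.37% of the tested genes. In Otx2 (53.0%) and Grhl2 (51.4%) it was near the median of the tested genes, 53.1%.

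Reads that mapped to more than 1 place had been discarded, so a read lying wholly inside a stretch that a factor shares with another gene was not counted. The share of 28-base windows of the counted sequence that also occurred in a Gencode M21 transcript of a gene elsewhere was 0% for Otx2, 0.111% for Grhl2, 1.02% for Pou3f1, 1.12% for Zic2, 2.16% for Sox4 and for Sox11, 2.27% for Sox3, 6.07% for Foxd3 and 28.5% for Zic5. The Zic5 windows were shared with the processed pseudogene Gm12241 at chr11:56459349-56460074, which left 1282 of 1794 windows to Zic5 alone. With 32-base windows the share for Zic5 was 27.0%. The levels of Zic5 per length given below divide by the whole counted sequence, with no allowance for these windows. Some of the longest shared stretches are shown because they mark where a read cannot be told between a factor and its relative. They are printed on the coding strand for Sox4 (chr13:28952749-28952796) and Sox11 (chr12:27342166-27342213), for Sox3 (chrX:60892741-60892785) and for Zic5, whose stretch crosses an intron (chr14:122459643-122463904).
Sox4 and Sox11, 48 bases: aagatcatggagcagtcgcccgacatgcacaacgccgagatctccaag
Sox3 and Sox1, 45 bases: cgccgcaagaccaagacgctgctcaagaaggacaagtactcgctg
Zic5 and Gm12241, 146 bases: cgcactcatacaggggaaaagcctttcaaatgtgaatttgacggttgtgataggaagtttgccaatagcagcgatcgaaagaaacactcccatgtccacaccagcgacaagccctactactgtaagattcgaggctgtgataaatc
The Sox4 and Sox11 genes were identical over 48 bases, and 21 of their 28-base windows were shared, so a read falling wholly inside this stretch was counted for neither.

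Totals were 2681439 to 14655015 counts per library, with the lowest depth in EpiLC RPF, where 3 counts correspond to 0.5542 to 1.1188 CPM, the counts scaled to a common library size. Some libraries stood apart in genes that mark the transition. ESC total RNA replicate 2 held the highest value of its group for 6 of the 9 factors, where 35.8% of all tested genes peaked in this library, and its median excess over replicates 1 and 3 was 0.53 on the log2 scale. The same library was the highest for 13 of 21 other formative and primed epiblast genes and for 0 of 16 naive genes. EpiLC replicate 1 was the highest of its group for 13 of 16 naive genes in total RNA and for 14 of 16 in RPF. EpiLC RPF replicate 3 was the lowest of its group for the GC-rich factors. All 7 lay below their group mean, with a median of -0.44 on the log2 scale, while the 271 other tested genes above 65% GC had a median of -0.30 and Otx2 was 0.13 above its mean. The same 7 factors lay below their mean in EpiLC total RNA replicate 3, with a median of -0.13. There Otx2 (-0.12) and Grhl2 (-0.04) lay below their means too, and the 271 other GC-rich genes had a median of -0.01. The results of the 9 factors that these libraries moved most are given with and without them.

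The homeodomain and POU factors were low in ESCs and abundant in EpiLCs. In total RNA, Otx2 stood at 4.29, 7.65 and 5.39 CPM (scaled by TMM, the trimmed mean of M-values) in ESC replicates 1 to 3 and at 51.6, 47.8 and 43.9 CPM in EpiLC replicates 1 to 3. Its RPF level was 7.16, 5.09 and 6.59 CPM in ESCs and 95, 101 and 112 CPM in EpiLCs. The cell types did not overlap in either assay, and Otx2 rose 8.63-fold in total RNA (log2 change 3.11 ± 0.175 SE, adjusted p = 6.3e-14) and 15.8-fold in RPF (3.99 ± 0.203, adjusted p = 1.73e-14) by voom and limma. For Pou3f1 the total RNA level was 4.58, 7.15 and 5.30 CPM in ESCs and 50.3, 43.2 and 40.6 CPM in EpiLCs. In RPF, Pou3f1 measured 5.12, 5.94 and 4.94 CPM in ESCs and 80.3, 89.2 and 42.3 CPM in EpiLCs, with EpiLC replicate 3 well below the other two. It rose 8.15-fold in total RNA (adjusted p = 1.77e-10) and 12.2-fold in RPF (adjusted p = 8.01e-10), and without EpiLC RPF replicate 3 its RPF log2 change was 3.96 in place of 3.60.

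The ZIC pair rose by less, and from different starting points. Zic2 was already the most abundant of the 9 factors in ESC total RNA, at 17.5, 17.5 and 19.8 CPM, and reached 71.2, 73.7 and 63.4 CPM in EpiLCs. Its RPF level went from 28.8, 31.2 and 21.4 CPM to 146, 154 and 94.4 CPM. The libraries of the cell types were separate in both assays, with a 3.81-fold rise in total RNA (adjusted p = 7.46e-11) and a 4.85-fold rise in RPF (adjusted p = 1.3e-11). Zic5 was scarce, with total RNA at 3.42, 3.36 and 2.82 CPM in ESCs and 8.99, 8.79 and 6.86 CPM in EpiLCs, a 2.56-fold rise (95% interval 1.69 to 3.89, adjusted p = 0.000244). Its RPF level was 4.6, 6.79 and 5.77 CPM in ESCs and 15.1, 20.5 and 6.74 CPM in EpiLCs. EpiLC replicate 3 lay inside the ESC range, and the RPF rise of 2.08-fold (log2 change 1.05 ± 0.304, adjusted p = 0.00432) was the smallest among the called factors. That call rested on single libraries: the log2 change fell below 1 without ESC RPF replicate 1 (0.88), EpiLC RPF replicate 1 (0.79) or EpiLC RPF replicate 2 (0.81), and was 1.57 without EpiLC RPF replicate 3.

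Among the SOX factors, Sox3 showed the widest range. Its total RNA counts in ESC replicates 1 to 3 were 6, 29 and 5, or 0.436, 2.44 and 0.428 CPM, against 22.9, 25.3 and 21.3 CPM in EpiLCs. Replicate 2, the library noted above, lay far above the others of its group. The rise was 28.5-fold (95% interval 13.7 to 59.2, adjusted p = 9.18e-09), and the log2 change went from 4.83 to 5.60 without ESC total RNA replicate 2. The Sox3 RPF level was 3.58, 2.55 and 2.29 CPM in ESCs and 124, 127 and 84.1 CPM in EpiLCs, which is a 38.6-fold rise (adjusted p = 7.43e-12). Sox4 and Sox11 also rose. Sox4 went from 3.13, 3.53 and 2.74 CPM to 28.2, 22.4 and 23.5 CPM in total RNA. Its RPF level went from 8.57, 4.88 and 5.67 CPM to 56.7, 58.4 and 46.6 CPM. Those are rises of 8.03-fold (adjusted p = 1.67e-11) and 8.28-fold (adjusted p = 4.09e-12), with no overlap between the cell types. Sox11 stood at 4.44, 8.66 and 4.70 CPM in ESC and 48.4, 45.4 and 45.2 CPM in EpiLC total RNA, with ESC replicate 2 again the highest. In RPF it went from 7.67, 9.55 and 4.39 CPM to 68.1, 81.6 and 47.2 CPM. The cell types were separate, with rises of 8.28-fold (adjusted p = 2.14e-11) and 9.81-fold (adjusted p = 1.16e-10).

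Foxd3 did not pass the test of change in either assay. Total RNA held it at 8.80, 7.74 and 8.38 CPM in ESCs and 8.46, 6.87 and 5.37 CPM in EpiLCs, and RPF at 25.2, 25.9 and 19.9 CPM in ESCs and 23.2, 31.5 and 18.3 CPM in EpiLCs. Its ranges overlapped in both assays. The log2 change was -0.23 in total RNA (95% interval -0.68 to 0.22, adjusted p = 0.364) and -0.02 in RPF (-0.38 to 0.34, adjusted p = 0.939), so these intervals leave out any rise above 1.16-fold in total RNA and 1.27-fold in RPF.

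Grhl2 had the largest rise after Sox3. ESC total RNA held 31, 61 and 38 Grhl2 counts, or 2.25, 5.13 and 3.25 CPM, and EpiLC total RNA held 43.6, 44.4 and 42.4 CPM. Its RPF level went from 2.30, 2.76 and 1.28 CPM, which are 18, 13 and 14 counts, to 64.8, 56.1 and 54.1 CPM. EpiLC libraries agreed closely with each other, with a coefficient of variation of 2.35% in total RNA, whereas the ESC value varied by 41.2%. Grhl2 rose 13.1-fold in total RNA (log2 change 3.71 ± 0.219, adjusted p = 1.65e-13) and 30.7-fold in RPF (4.94 ± 0.335, adjusted p = 3.91e-12). Of 12 tested epithelial genes that are known as targets of grainyhead-like factors, 7 rose in total RNA and 5 were not called, and the same counts held in RPF, where 14.6% and 15.4% of all tested genes were called higher in the respective assays. The median log2 change of these 12 genes was 2.33 in total RNA, beside 0.03 over all tested genes. The splicing regulator Esrp1 rose by 4.22 on the log2 scale in total RNA, the claudins Cldn6 and Cldn7, which are parts of tight junctions, by 3.25 and 3.24, and the vesicle trafficking GTPase Rab25 by 2.57. Among the 5 not called, Spint1, which encodes a protease inhibitor, had a log2 change of -0.54 (adjusted p = 1.05e-06), under the fold limit.

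**Figure D1:**
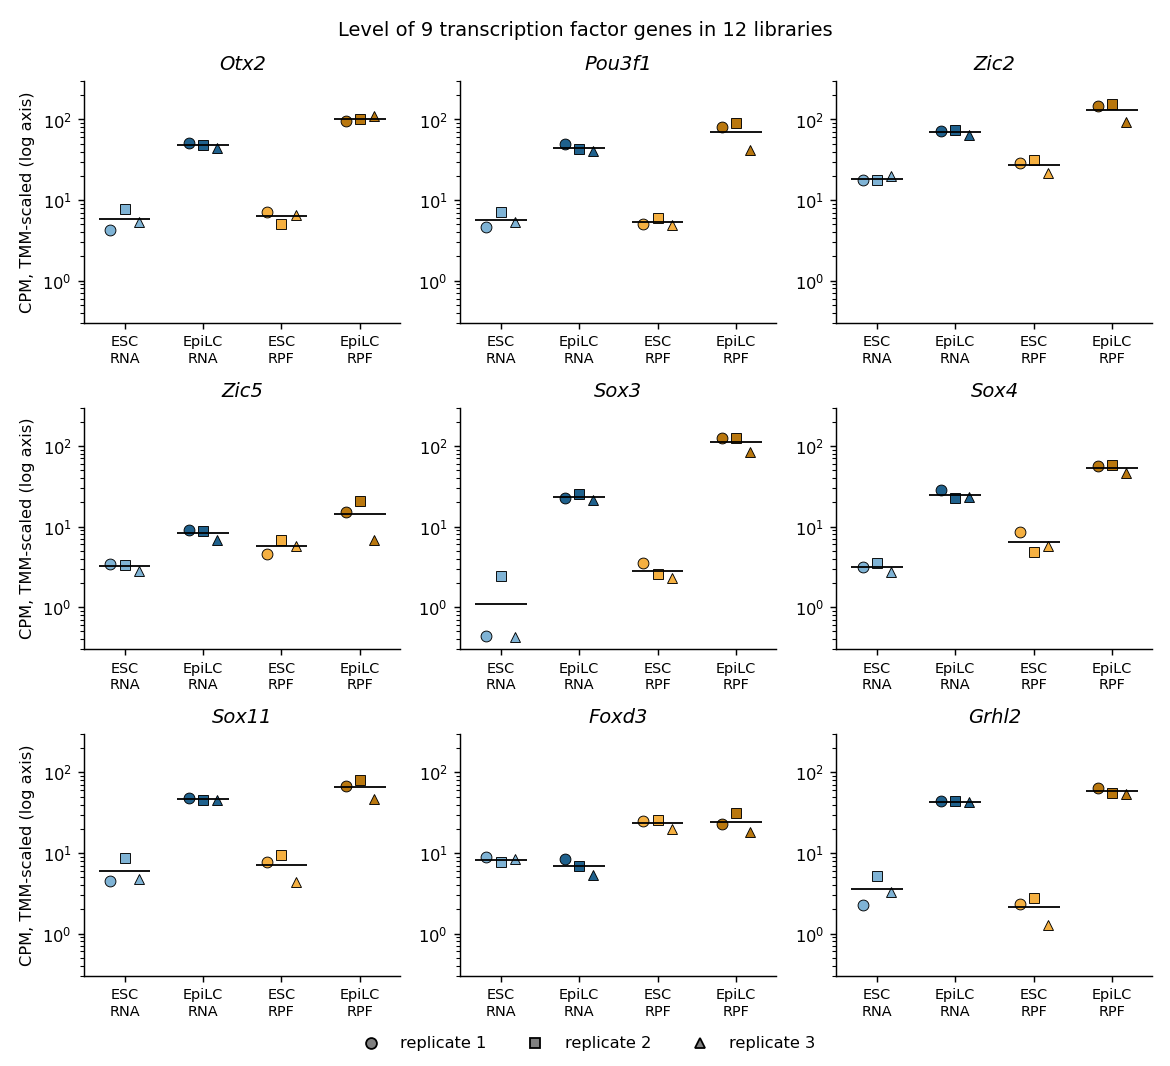
TMM-scaled CPM (log axis) of each factor in the 12 libraries, with symbols for replicates and a line at the mean of 3. Panels of 8 factors step up from ESC to EpiLC in both assays, Zic5 RPF replicate 3 (6.74 CPM) falls back into the ESC range, and the Foxd3 ranges overlap.

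Counted together, 8 of the 9 factors were called higher in EpiLC total RNA and 0 lower, where 14.6% of all tested genes were called higher and 9.7% lower (adjusted p below 0.05 and an absolute log2 change above 1). In RPF, again 8 of 9 were higher and 0 lower, beside 15.4% higher and 10.6% lower over all tested genes. The factors were listed as genes of the formative and primed epiblast, with earlier results of these data known, so these counts are a description. Sox3 and Grhl2 reached the filter of 3 CPM in 3 libraries only with their EpiLC libraries. Every EpiLC library lay above every ESC library for 8 factors in total RNA and for 7 in RPF, beside 36.9% and 32.2% of the tested genes. The median log2 change of the 9 factors was 3.03 in total RNA and 3.30 in RPF, and the medians over all tested genes were 0.03 and 0.01. The summed level of the 9 factors was 54.9 ± 7.41 CPM (SD, n = 3) in ESC and 315 ± 20.8 CPM in EpiLC total RNA, and 86.6 ± 12.5 CPM in ESC and 633 ± 113 CPM in EpiLC RPF. In bulk libraries, more cells that make an RNA and more RNA per cell cannot be told apart.

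GC content moved with these changes. The 271 other tested genes above 65% GC had a median log2 change of 0.35 in total RNA and 0.46 in RPF. When a smooth trend of log2 CPM on GC content was removed from each library, the median of the 9 factors became 2.56 in total RNA and 2.75 in RPF, while Otx2 (3.11 and 3.97) and Grhl2 (3.68 and 4.91), which are not GC-rich, moved little. Zic5 was then no longer called (log2 change 0.89, adjusted p = 0.00313 in total RNA, and 0.50, adjusted p = 0.1 in RPF). Foxd3 moved further below 0, from -0.23 to -0.83 (adjusted p = 0.000139) in total RNA and from -0.02 to -0.76 (adjusted p = 4.63e-05) in RPF, short of the fold limit. The other 7 factors stayed called in both assays. The part of GC content in the changes was not tested beyond this correction.

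**Figure D2:**
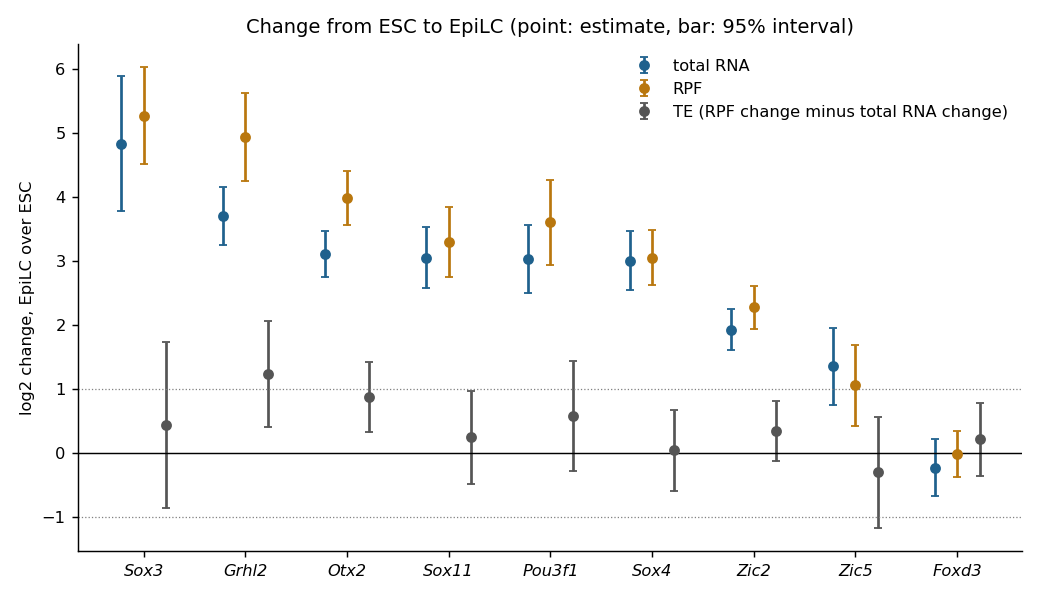
Log2 change from ESC to EpiLC in total RNA, RPF and TE for each factor, as the fitted estimate with its 95% interval, with dotted lines at the fold limit of 1 in either direction. Total RNA and RPF points of 8 factors lie above 1, both Foxd3 points lie near 0, and the TE points of Otx2 (0.88) and Grhl2 (1.23) are the ones whose intervals leave out 0.

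The number of footprints per unit of mRNA, called translational efficiency (TE), was compared between the cell types with the interaction of assay and cell type. Of the 9 factors, 0 were called, beside 0.255% of the tested genes, and 8 of 9 estimates were positive with a median of 0.35. After GC correction, 7 of 9 were positive. Before correction, the median TE change was 0.006 over all tested genes and 0.142 over the 271 other GC-rich genes. Without ESC total RNA replicate 2, 5 of 9 were positive, and leaving out each library in turn gave medians of 0.15 to 0.61. At an unadjusted p below 0.05, 2 of the 9 passed, Grhl2 and Otx2, beside 13.9% of the tested genes. For Grhl2 the log2 TE change was 1.23 ± 0.40 (95% interval 0.41 to 2.06, adjusted p = 0.134 by voom and limma), the 98.5th percentile of tested genes. DESeq2 called it (1.28, adjusted p = 0.0103) and edgeR did not (1.27, adjusted p = 0.0668). Otx2 had 0.88 ± 0.268 (0.32 to 1.43, adjusted p = 0.105), which did not reach the fold limit by DESeq2 (0.95, adjusted p = 0.00794). Single ESC libraries moved both estimates. Without ESC total RNA replicate 2 they were 0.93 (adjusted p = 0.35) for Grhl2 and 0.66 (adjusted p = 0.334) for Otx2, and without replicate 1 they were 1.54 (adjusted p = 0.0496) and 1.09 (adjusted p = 0.0479), both called. Grhl2 had 0.82 (adjusted p = 0.408) without ESC RPF replicate 3. The 95% interval for Sox3 ran from -0.86 to 1.74 and that for Zic5 from -1.17 to 0.57. The interval was tighter for Zic2 (-0.12 to 0.82), Sox4 (-0.59 to 0.68) and Foxd3 (-0.36 to 0.79).

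Within each cell type, TE rests on TMM-scaled libraries and is relative to the bulk of the tested genes. On that scale several factors had a high TE, and fewer of them after the GC correction given below. In ESCs, TE was called higher for 3 of 9, beside 7.93% of tested genes, and lower for 0, beside 13.5%. In EpiLCs it was called higher for 4 of 9, beside 9.39%, and lower for 0, beside 14.4%. Sox3, Sox4 and Foxd3 were called in both. The log2 TE of Sox3 was 1.79 ± 0.612 in ESCs (adjusted p = 0.0123) and 2.23 ± 0.154 in EpiLCs (adjusted p = 4.66e-12), the 99.3rd percentile of tested genes in the latter. Foxd3, whose mRNA and RPF did not pass the test of change, had 1.45 ± 0.174 (adjusted p = 6.62e-08) and 1.66 ± 0.217 (adjusted p = 3.19e-07). Sox4 lay at the limit with 1.01 ± 0.277 (adjusted p = 0.00235) and 1.06 ± 0.13 (adjusted p = 1.12e-07). Otx2 was called in EpiLCs (1.09 ± 0.105, adjusted p = 1.64e-09), and its ESC value was 0.22 ± 0.247 (adjusted p = 0.443). The Grhl2 value was -0.80 ± 0.382 (adjusted p = 0.0654) in ESCs, the one factor besides Pou3f1 (-0.08) with a negative estimate, and 0.43 ± 0.12 (adjusted p = 0.00325) in EpiLCs. TE within a cell type compares 2 kinds of library and moves with GC content, since the 271 other GC-rich genes had a median log2 TE of 0.38 in ESCs and 0.63 in EpiLCs. Single libraries decided some of these calls. Without ESC total RNA replicate 1 or 3, Sox3 in ESCs had 1.35 (adjusted p = 0.0745) or 1.43 (adjusted p = 0.0637), and without replicate 2 it had 2.56 (adjusted p = 0.00361). Sox4 in ESCs had 0.83 without ESC RPF replicate 1 and 0.93 without ESC total RNA replicate 3. Grhl2 was called lower in ESCs without ESC total RNA replicate 1 (-1.12, adjusted p = 0.0117), and Zic2 (1.137) and Zic5 (1.06) were called higher in EpiLCs without EpiLC RPF replicate 3, where Pou3f1 went from 0.49 to 0.91. After the GC correction, Sox3 was the one factor called in ESCs (1.16, adjusted p = 0.0363), and Sox3 (1.43) and Otx2 (1.05) were called in EpiLCs. Foxd3 then had 0.88 and 0.96 and Sox4 had 0.71 and 0.68, below the fold limit. The shares of all tested genes called after this correction are not given here.

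**Figure D3:**
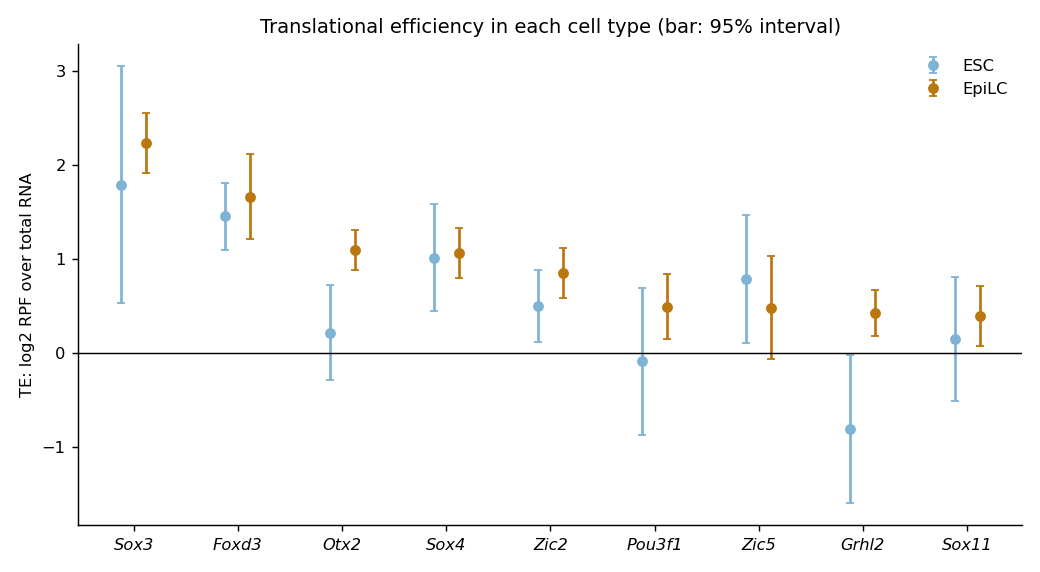
Log2 TE (RPF over total RNA) of each factor in ESCs and EpiLCs with 95% intervals, ordered by the EpiLC value. Sox3 (2.23) and Foxd3 (1.66) lead in EpiLCs. The ESC interval of Sox3 is the widest, at 5 to 29 counts per ESC total RNA library and 12 to 28 per ESC RPF library. Those of Grhl2 (13 to 18 counts per ESC RPF library) and Pou3f1 come next and are of like width.

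The order of the factors by level changed between the states. Per kilobase of counted sequence, ESC total RNA was led by Zic2 at 11.8 ± 0.853 CPM per kb (SD, n = 3), and its libraries lay above those of Otx2 (6.81 ± 2.02), the next gene. Otx2, Foxd3 (6.09), Sox11 (5.19) and Pou3f1 (4.35) overlapped each neighbour in that order. Sox4 (2.45), Grhl2 (1.83), Zic5 (1.76) and Sox3 (0.842) formed the lower end and overlapped as neighbours too. In EpiLC total RNA, Otx2 led at 56.3 ± 4.55 CPM per kb, above Zic2 (45 ± 3.46), whose range overlapped that of Sox11 (40.5). Pou3f1 (34.2) followed apart from Sox11, then Grhl2 (22.5), Sox4 (19.3) and Sox3 (17.7), which overlapped as neighbours, and Foxd3 (5.06) and Zic5 (4.50) came last. Among tested genes, Otx2 moved from the 24.2nd to the 75.5th percentile of total RNA per kb, and Foxd3 from the 22.4th to the 17.6th.

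The RPF order differed from that of total RNA most in the places of Grhl2 and Sox3. Neither these levels per kb nor those of the preceding paragraph were corrected for GC content, which was 51.4% in Grhl2 and 73.6% in Sox3. The 271 other GC-rich genes had a median log2 RPF over total RNA of 0.38 in ESCs and 0.63 in EpiLCs. The part of GC content in the order was not tested. Grhl2 was 7th in total RNA and 9th in RPF in ESCs, and 5th and 7th in EpiLCs. Sox3 was 7th in total RNA and 2nd in RPF in EpiLCs. In ESCs, Zic2 (17.6 ± 3.3 CPM per kb) and Foxd3 (17.3 ± 2.42) overlapped and stood above Otx2 (7.40), with Sox11 (6.30), Sox4 (4.99), Pou3f1 (4.09), Zic5 (3.14) and Sox3 (2.14) below it and Grhl2 last at 1.09 ± 0.392. In EpiLCs, Otx2 led at 121 ± 9.99 CPM per kb, and Sox3 (85.5 ± 18.5) and Zic2 (85.2 ± 21.1) did not differ beyond their spread. Sox11 (57.4), Pou3f1 (54.1) and Sox4 (42.2) overlapped as neighbours, and Grhl2 (30.2), Foxd3 (17.8) and Zic5 (7.74) followed, each apart from the next. Sox3 went from the 8th place to the 2nd in RPF, and from the 9th to the 7th in total RNA. The highest factor exceeded the lowest 14-fold in ESC and 12.5-fold in EpiLC total RNA, and 16.1-fold and 15.6-fold in RPF.

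**Figure D4:**
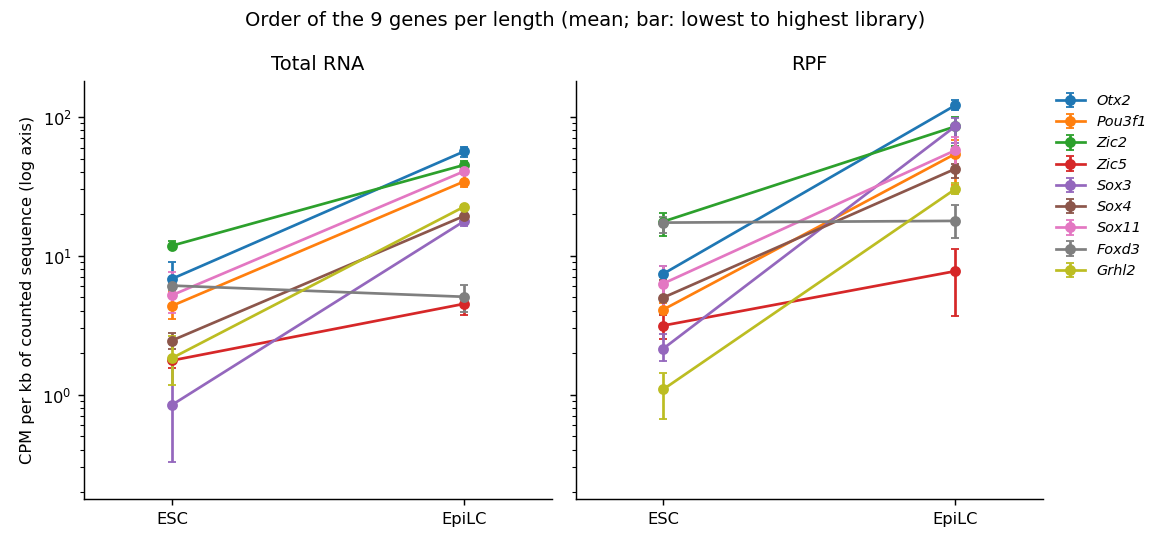
CPM per kb of counted sequence (log axis) of the 9 factors in ESCs and EpiLCs, as the mean of 3 with bars from the lowest to the highest library. The Foxd3 line is flat and crosses those of rising factors, and Sox3 climbs from 0.842 to 17.7 in total RNA and from 2.14 to 85.5 in RPF.

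Ratios between factors within a library do not depend on how libraries are scaled. With 3 libraries against 3, a 2-sided exact permutation test cannot go below p = 0.1, and after adjustment over the 10 comparisons of 5 pairs in each assay the smallest value was 0.2. Per kb, Sox3 mRNA was 0.00169, 0.0103 and 0.00157 of Sox2 mRNA in ESC replicates 1 to 3 and 0.507, 0.732 and 0.509 in EpiLC replicates 1 to 3 (exact permutation p = 0.1, adjusted p = 0.2). The corresponding RPF ratios were 0.00827, 0.00543 and 0.00522 in ESCs and 2.04, 2.27 and 1.46 in EpiLCs (exact permutation p = 0.1, adjusted p = 0.2). Sox3 footprints outnumbered those of Sox2 per kb in all 3 EpiLC libraries, whereas Sox2 mRNA remained above Sox3 mRNA. The ratios were not corrected for GC content. Sox2, which pairs with POU5F1 in both states, fell by 2.72 on the log2 scale in total RNA. Zic2 exceeded Zic5 6.67-fold in ESC and 9.97-fold in EpiLC total RNA, and 5.54-fold and 11.8-fold in RPF, as geometric means per kb without allowance for the windows of Zic5 that cannot be counted. The groups did not overlap in either assay (exact permutation p = 0.1, adjusted p = 0.2 in both). For the SOXC pair, Sox4 was 0.496 of Sox11 in ESC and 0.476 in EpiLC total RNA per kb, and 0.81 and 0.75 in RPF, with overlapping groups (exact permutation p = 0.8 and 0.9). Grhl2 relative to Otx2 went from 0.264 to 0.401 in total RNA (exact permutation p = 0.1) and from 0.145 to 0.25 in RPF (p = 0.2, exact permutation), and Pou3f1 relative to Otx2 from 0.647 to 0.607 and from 0.557 to 0.427 (exact permutation p = 0.2 and 0.6).

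The paralogs of the factors moved in both directions. Of 16 close paralogs, 6 had enough reads to be tested, and 1 rose and 2 fell in total RNA, with 2 rising and 2 falling in RPF, beside the 14.6% higher and 9.7% lower of all tested genes in total RNA and 15.4% and 10.6% in RPF. Grhl3, a grainyhead-like gene, fell by 3.65 on the log2 scale in total RNA (adjusted p = 6.3e-11), from 19.9 to 1.52 CPM, while Grhl2 rose. Sox12, the last SOXC gene, rose by 1.02 in total RNA and 1.91 in RPF, although its total RNA value fell short of the fold limit with DESeq2 (0.96), after GC correction (0.44), and on leaving out any of 9 of the 12 libraries (lowest 0.95, without ESC total RNA replicate 1). It is also on the list of formative genes below. The 10 paralogs with too few reads to be tested, among them Otx1, Pou3f2, Zic1 and Foxd1, averaged at most 1.19 CPM in every group.

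Most genes known to mark the same transition also moved. Of 21 tested genes of the formative and primed epiblast outside the 9, 12 rose, 1 fell and 8 were not called in total RNA, and the counts were the same in RPF, with median log2 changes of 1.34 and 1.51, beside the same shares of all tested genes. The growth factor genes Fgf8 and Fgf15 rose by 4.46 and 4.0 in total RNA, and Dusp6, which encodes an ERK phosphatase, by 4.21. Leaving out 1 ESC total RNA library put Fgf8 at 3.45 (replicate 1) or 5.09 (replicate 2). Fgf5 is on the same list, and its ESC total RNA mean of 0.811 CPM was highest in replicate 2. All 16 naive pluripotency genes were tested, and 14 fell in total RNA and 15 in RPF with 0 rising. Of all tested genes, 9.7% and 10.6% were called lower in the respective assays. The median log2 changes of the 16 were -4.67 and -4.61. In total RNA, Klf4 had a log2 change of -5.52, Klf2 of -5.18 (-5.88 without EpiLC total RNA replicate 1) and Tfcp2l1 of -5.12. Among 13 tested partners and co-regulators of the factors, 1 rose, 2 fell and 10 were not called in both assays. The shares of all tested genes were 14.6% higher and 9.7% lower in total RNA, and 15.4% and 10.6% in RPF. The log2 changes in total RNA were 1.45 for Gli3 and -2.14 for Gli2, beside Sox2.

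Several of the 9 factors also mark later lineages, so markers of other cell types were examined. Of 9 neural progenitor markers, 3 were tested and 2 rose in total RNA, beside 14.6% of all tested genes. The summed level of the 9 ranged from 59.6 to 73.1 CPM in ESC and 253 to 333 CPM in EpiLC total RNA. Most of that sum was the intermediate filament gene Nes, which went from 52.8 to 283 CPM. Pax6 reached 8.63 CPM, Sox1 (11 and 11.6 CPM) was not called, and Neurog2, Hes5 and Fabp7 had at most 3 counts in any library. Mesoderm and primitive streak markers summed to 9.92 to 11.7 CPM in ESC and 5.60 to 8.33 CPM in EpiLC total RNA, and endoderm markers to 2.57 to 3.11 and 2.63 to 3.52 CPM, with Afp at 0 throughout. Summed trophoblast markers lay between 43.3 and 52.2 CPM in ESC and 2.56 and 8.46 CPM in EpiLC total RNA, nearly all of it Tfap2c, with Elf5 at 0. Summed fibroblast markers lay between 1.96 and 2.31 CPM in ESC and 12.8 and 14.9 CPM in EpiLC total RNA, and between 6.37 and 7.14 CPM and 34.3 and 41 CPM in RPF. All 3 tested markers, Col1a1 and Thy1 among them, were called higher in both assays, beside 14.6% and 15.4% of all tested genes. Postn was at 0. The part of these cell types in the values of the 9 factors was not tested.

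The genes whose profile over the 12 libraries most resembled the mean centred profile of the 9 factors were Dusp4 (Pearson r = 0.997), App (0.9955), Nes (0.9953), Wnt3 (0.9952) and Cldn7 (0.9951). The 12 points fall into 4 groups of 3 and share depth and assay, so any gene with a strong step between the cell types scores high, and the coefficients are a description. Single factors had other nearest genes, such as Tpm1 for Otx2 (0.9962), Esrp1 for Grhl2 (0.9936), Jun for Zic2 (0.9903) and Cavin1 for Foxd3 (0.9894). Among the 9 factors themselves, the closest pair was Pou3f1 and Sox11 (0.987), and Foxd3 had coefficients between -0.092 (Grhl2) and 0.45 (Zic5) with the others.

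Promoter windows from 250 to 51 bases before the RefSeq start (GRCm38.p6, most upstream start) were at hand for 5 of the 9 genes, and those of the 2 SOXC genes, which moved together, and of Foxd3, which was not called, are shown from 5′ to 3′ on the gene's strand. Sox4 is at chr13:28953750-28953949, Sox11 at chr12:27342769-27342968 and Foxd3 at chr4:99656049-99656248. Capitals mark CCAAT and GGGCGG in either orientation.
Sox4: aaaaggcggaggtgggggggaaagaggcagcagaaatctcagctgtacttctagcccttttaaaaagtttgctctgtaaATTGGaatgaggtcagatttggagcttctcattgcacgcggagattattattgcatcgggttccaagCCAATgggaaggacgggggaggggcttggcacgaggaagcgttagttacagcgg
Sox11: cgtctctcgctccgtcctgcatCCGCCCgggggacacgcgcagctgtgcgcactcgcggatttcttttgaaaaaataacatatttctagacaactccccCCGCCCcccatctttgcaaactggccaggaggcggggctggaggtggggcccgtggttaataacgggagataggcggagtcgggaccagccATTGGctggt
Foxd3: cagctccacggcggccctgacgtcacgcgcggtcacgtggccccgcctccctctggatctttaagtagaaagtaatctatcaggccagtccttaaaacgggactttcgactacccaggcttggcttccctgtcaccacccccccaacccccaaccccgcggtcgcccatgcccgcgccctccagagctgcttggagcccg
CCAAT occurred 2 times in the Sox4 window and 1 time in that of Sox11, and 28.9% of 27025 gene promoters hold it in the same window. GGGCGG occurred 2 times in the Sox11 window, and 24.6% of promoters hold it. The Foxd3 window held none of the 7 motifs searched on both strands, which were the CCAAT and GC boxes, the TATA box as TATAAA (in 9.49% of promoters), the OTX motif as TAATCC (in 5.37%), the POU octamer as ATGCAAAT (in 1.33%), the SOX motif as AACAAT (in 8.11%) and the grainyhead motif as AACCNGTT (in 1.42%). No match of one motif overlapped another in the 3 windows shown. Otx2 had TATAAA and none of the others, and the Zic5 window had none. GC content of the windows was 37.0% for Otx2, 50.5% for Sox4, 60.5% for Sox11, 63.0% for Zic5 and 64.5% for Foxd3. A match or its absence is a description of these letters in this window.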

How the data were processed

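Counts of RPF and total RNA reads were analysed for 2 cell types with 3 libraries each per assay, grouped and numbered by the sample titles. Raw gene-level counts were deposited by the authors. Per the file headers, the submitters' processing notes and the study's methods, reads were trimmed with cutadapt 1.14, aligned with STAR 2.5.3a to mm10 and Gencode M14 keeping single positions, and counted by their 5′ end on the sense strand with featureCounts 1.5.3 over coding sequence without its first 45 nt. How PCR duplicates were treated is not given in the sources used here, so floors cover counting error only. Symbols were matched for 22385 of 22462 genes. GC content and shared windows came from Gencode M21.

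Genes with at least 3 CPM in at least 3 libraries were fitted with TMM (edgeR 4.0.16), voom and limma 3.58.1 in R 4.3.3, 4 groups in 1 model over 12 libraries, without a replicate block. The filter, limma and the interaction term follow the study, and voom and TMM were chosen here. Calls required a Benjamini-Hochberg adjusted p below 0.05 over 11750 genes and an absolute log2 fold change above 1. Log2 changes rest on counts with 0.5 added. DESeq2 1.42.0, edgeR, other scalings, filters, a replicate block, GC correction and leaving out each library were alternatives. The fits were tested on simulated data.

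All 9 factors were named, with up to 4 genes of largest mRNA change per list (for marker lists also the most abundant), and the 5 genes most like the mean profile and 1 per factor. Spint1, Otx1, Pou3f2, Zic1, Foxd1 and markers near 0 were named after their values were seen. The factors and lists were chosen with earlier results of these data known. Some genes of the lists and a shared stretch are not reported here.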

Additional observations from a re-analysis of the deposited data

How the results depend on the processing

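The 8 calls among the 9 factors in total RNA and in RPF kept their direction and their side of the threshold under all 23 alternatives for each comparison, with the exceptions of Zic5 given above. Not all of these alternatives could readily change a call. Dropping the fold limit cannot remove one, and leaving out a library of the other assay acts mainly through scaling and the estimate of spread. The median log2 change of the factors was 2.56 in total RNA and 2.75 in RPF after GC correction, and 2.55 and 2.69 with GC correction and a replicate block. Deviations of same-numbered libraries correlated at -0.013 to 0.04 between cell types and -0.182 to 0.163 between assays. These did not reach 0.1 in every pair, so the numbers were not treated as pairing the libraries. EpiLC replicate 1 (0.163) was nevertheless the highest for most naive genes in both assays. The study describes the total mRNA as matched to the RPF, and low correlations do not show that libraries were independent. The SE and p-values given for TE rest on the fit without pairing. In EpiLC replicate 3 the 7 GC-rich factors lay below their mean in both assays, while the 271 other GC-rich genes were at -0.30 in RPF and -0.01 in total RNA. The replicate block alone gave 30 genes with higher and 23 with lower TE change, while the block with GC correction gave 37 and 23. Without the filter, 2685 genes were called higher and 1756 lower in total RNA. Without the fold limit, 4068 were higher and 3612 lower in total RNA, 3660 and 3369 in RPF, 67 and 74 in TE change, 3872 and 4058 for TE in ESCs, and 3680 and 3880 for TE in EpiLCs. DESeq2 called 1 factor (Grhl2) and 32 genes higher and 24 lower in TE change. The factors with higher TE in ESCs numbered 1 after GC correction, 0 with the block added and 5 without the fold limit, and those in EpiLCs 2, 2 and 8. The median log2 TE of the factors in EpiLCs was then 0.54 and 0.55 with the 2 GC corrections. In the main fit, 7.93% of tested genes were called higher in ESCs and 9.39% in EpiLCs. The shares after GC correction are not given here, so these counts do not set the factors apart from other genes. Some values changed sign. Foxd3 in RPF was 0.012 with edgeR and 0.013 with total counts. After GC correction, without and with the block, Sox1 was -0.49 and -0.50 in total RNA and -0.28 and -0.27 in RPF, the TE change of Sox4 was -0.04 and -0.05, TE in ESCs of Sox11 was -0.17 and -0.14, and TE in EpiLCs of Pou3f1 was -0.25 and -0.23. TE in EpiLCs of Sox11 was -0.019 after GC correction. Of these, Pou3f1 (0.49) and Sox11 (0.40) for TE in EpiLCs and Sox1 in RPF (0.54) had been above 0 at adjusted p = 0.013, 0.0271 and 0.0383 by limma, below the fold limit. Leaving out each library in turn gave ranges of 2.89 to 3.52 for the RPF median of the factors, -0.20 to 0.16 for Foxd3 in RPF and -0.017 to 0.35 for Sox1 in total RNA. For TE change these were 0 to 2 factors and 13 to 38 genes higher, 6 to 22 genes lower, -0.54 to 0.25 for Zic5, -0.33 to 0.87 for Sox3, -0.083 to 0.26 for Sox4 and -0.18 to 0.50 for Sox11. For TE in ESCs they were 1 to 3 factors higher, 0 to 1 lower, -0.24 to 0.087 for Pou3f1 and -0.041 to 0.59 for Sox11. For ratios, the log2 difference between cell types ran from -0.28 to 0.12 for Sox4 to Sox11 in total RNA, -0.52 to 0.14 in RPF, and -0.60 to 0.012 for Pou3f1 to Otx2 in RPF. What causes these shifts was not tested. Depth was lowest for Sox3, with as few as 5 counts in ESC total RNA.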
